A study of Mus musculus with 2 samples.

Results

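Chemokines are small secreted proteins that attract leukocytes by binding G protein-coupled receptors, and macrophages are among their main producers in tissue. CCR2, the receptor for Ccl2, Ccl7 and Ccl12, draws monocytes out of the blood, but macrophages also make many chemokines that act mainly on other receptors. These include CCR1, found on several leukocyte types, CCR3 on eosinophils and CCR8 on some T cells. Resident macrophages of the heart and other organs that carry the hyaluronan receptor Lyve1 and the folate receptor Folr2 are known for a scavenger and tissue-repair gene set. Macrophages with the fractalkine receptor Cx3cr1 include monocyte-derived and antigen-presenting cells.

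The 9 genes described here, of 32285 in each matrix, are the ligands Ccl3, Ccl4, Ccl5, Ccl6, Ccl8, Ccl9, Ccl24 and Pf4 and the receptor Ccr1. They were taken by symbol, and each symbol matched 1 matrix row. They were chosen by their UMI counts in these same cells, which differed between macrophage subsets or between genotypes, so all levels, subset ratios and genotype ratios below describe the genes and carry no test.

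Single cells were isolated from mouse mitral valves and profiled by droplet 3′ RNA-Seq, in which each captured transcript is counted once by its unique molecular identifier (UMI). There was 1 library per genotype. The WT library came from Fbn1+/+ littermates and the mgR library from mice homozygous for the hypomorphic Fbn1 mgR allele, which make too little fibrillin-1, the main protein of extracellular microfibrils. The mice were 12 weeks of age and untreated in both groups, and the valves of both were digested with enzymes and sorted for viable cells. The labels do not say how many animals each library held, and the study gives an n for its single-cell maps without saying whether it counts animals per library. The mgR allele lowers Fbn1 output in all cells of the mouse and is not restricted to the valve or to macrophages. In fibroblast-gate cells Fbn1 stood at 169 CPM (UMIs per 1e+06 UMIs of the cells named) in WT and 138 in mgR, a ratio of 0.820 (95% interval 0.714 to 0.944). The study describes Fbn1 mRNA as severely reduced in homozygous mgR mice, a larger reduction than this ratio shows. Its own mRNA measurement was RT-PCR in cultured dermal fibroblasts, so cells and assay differ from the UMI counts here. In mgR valve leaflets it found less fibrillin-1 protein by immunofluorescence. The reason for the gap between the mRNA description and the UMI ratio was not tested. The study describes male mice only, yet both libraries held cells with Xist and no Y-linked UMIs beside cells with the opposite pattern. Among macrophages the Xist-only share was 33.6% in WT and 67.0% in mgR, and the Y-only share was 39.7% and 19.0%, so cells of both kinds were described separately where the genotypes are compared.

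Of 1104 WT barcodes with 5381844 UMIs, 875 cells had 200 to 5000 genes and at most 10% mitochondrial UMIs, and of 3802 mgR barcodes with 28215539 UMIs, 3438 did. Macrophages were cells with at least 10 UMIs of C1qa, C1qb and C1qc summed, and they made up 229 WT cells (26.2%) and 1575 mgR cells (45.8%). Csf1r, the receptor for the macrophage growth factor, had a UMI in 94.8% of WT and 96.1% of mgR macrophages, and Adgre1 (F4/80) in 74.7% and 84.6%, against 0% and 0.246% of fibroblast-gate cells. T cells, with at least 2 UMIs of Cd3e, Cd3d and Cd3g, numbered 90 and 156, and the T cell receptor gene Trbc2 had a UMI in 77.8% and 91.7% of them. Il7r had a UMI in 88.9% and 89.7% of them, Trac in 32.2% and 42.3%, and Lck in 18.9% and 39.7%. Cd4 went the other way, with a UMI in 1.11% and 5.77% of T cells and in 10.04% and 8.89% of macrophages. Within macrophages the CD3 genes summed to 2 UMIs in WT and 6 in mgR, while hemoglobin genes, which belong to red cells, stood at 189 and 1121 CPM. What part these hemoglobin UMIs have in the values below was not tested. The median macrophage had 6045 UMIs in WT and 8373 in mgR, so shares of cells with a UMI are given after each cell was thinned to 2000 UMIs. That step left out 6 WT and 24 mgR macrophages with fewer UMIs. CPM are taken from UMIs summed over the cells of a group, and all intervals are 95% intervals that cover counting error only, not the variation between animals. Those of CPM and ratios treat UMIs as independent, so they also leave out the variation between cells.

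The genes lie on 3 chromosomes (GRCm38, GENCODE vM21, all protein coding). Ccl5, Ccl9, Ccl6, Ccl3 and Ccl4 lie in this order within 138906 bp of chromosome 11 (83525778 to 83664683), and Ccl8 lies apart from them on the same chromosome (82115185 to 82116799, plus strand). Pf4 (90772435 to 90773383, plus strand) and Ccl24 (135569937 to 135573049, minus strand) are on chromosome 5, and Ccr1 (123962124 to 123968692, minus strand) is on chromosome 9. Ccl9 and Ccl6 are separated by 9245 bp and Ccl3 and Ccl4 by 13228 bp, with no other protein-coding gene between them in either pair, while 42400 bp separate Ccl5 from Ccl9 and 54756 bp separate Ccl6 from Ccl3. Of the 9 genes, 8 overlap no other annotated gene. Ccl6 is overlapped by E230016K23Rik on the opposite strand, so its UMIs are certain only as far as the counting used strand.

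RefSeq's promoter table (GRCm38.p6) held 6 of the 9 genes, namely Ccl3, Ccl6, Ccl8, Ccl9, Pf4 and Ccr1. The 250 bases upstream of the transcription start are printed for the adjacent pair Ccl6 and Ccl9, whose levels varied together among macrophages, and for Ccl8 and Pf4, which were high in the same macrophage division from other loci. Capitals mark matches on either strand to 6 short motifs: AP-1 (TGANTCA), NF-kB (GGGNNNTTCC), PU.1 (GAGGAA), C/EBP (TTGCNNAA), STAT6 (TTCNNNNGAA) and the TATA box (TATAAA). All sequences are written 5′ to 3′ on the strand of the gene and end at the base before the start. They cover chr11:83593088-83593337 (minus) for Ccl6, chr11:83578637-83578886 (minus) for Ccl9, chr11:82114935-82115184 (plus) for Ccl8 and chr5:90772185-90772434 (plus) for Pf4.
Ccl6: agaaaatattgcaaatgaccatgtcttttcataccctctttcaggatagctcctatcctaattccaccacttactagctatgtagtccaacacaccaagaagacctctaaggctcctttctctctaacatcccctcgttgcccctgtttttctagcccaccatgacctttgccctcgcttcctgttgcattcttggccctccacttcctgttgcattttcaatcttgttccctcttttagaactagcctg
Ccl9: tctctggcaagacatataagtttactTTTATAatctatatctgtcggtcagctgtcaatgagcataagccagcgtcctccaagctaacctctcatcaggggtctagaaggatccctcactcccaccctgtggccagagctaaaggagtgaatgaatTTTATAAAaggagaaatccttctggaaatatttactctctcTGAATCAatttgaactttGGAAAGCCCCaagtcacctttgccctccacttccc
Ccl8: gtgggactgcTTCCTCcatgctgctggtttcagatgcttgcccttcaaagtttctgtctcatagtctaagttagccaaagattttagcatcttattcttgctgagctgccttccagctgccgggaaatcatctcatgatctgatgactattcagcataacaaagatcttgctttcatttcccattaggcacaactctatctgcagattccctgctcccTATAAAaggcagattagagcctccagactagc
Pf4: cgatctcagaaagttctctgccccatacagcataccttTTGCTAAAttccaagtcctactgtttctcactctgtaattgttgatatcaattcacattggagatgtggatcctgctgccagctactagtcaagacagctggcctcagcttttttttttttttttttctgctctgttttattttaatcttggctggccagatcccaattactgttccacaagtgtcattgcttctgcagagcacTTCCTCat

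Ccl8 held a TATA box whose first base is at position -32 from the start, and Ccl9 held one at -92 that overlaps a match on the opposite strand at -94, a further opposite-strand TATA match at -224, an AP-1 match at -53 and an NF-kB match on the opposite strand at -35. The Ccl6 window held none of the 6 motifs. Pf4 held a C/EBP match at -212 and a PU.1 match on the opposite strand at -8. PU.1 letters occurred in 4 of the 6 promoters (Ccl3, Ccl8, Pf4 and Ccr1) and in 23.3% of all 32851 promoter windows of this length, and TATAAA in 2 of 6 and 12.4%. The AP-1, NF-kB and C/EBP letters were each in 1 of the 6, against 6.75%, 4.65% and 9.56% of all windows, and the STAT6 letters were in 0 of 6 and 5.85%. The Ccl6 and Ccl9 windows shared a run of 13 bases, GCCCTCCACTTCC, starting at -55 in Ccl6 and at -14 in Ccl9, whereas the longest shared run in the other 14 pairs of promoters was 7 to 9 bases. Their best local alignment lay elsewhere (-132 to -69 in Ccl6) and did not stand apart: its score of 16.5 was the same as for Ccl6 with Ccl3 and with Pf4, and lower than the 19 of Ccl3 with Ccl8.

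Macrophages with a UMI of Lyve1 or Folr2 and none of Cx3cr1 or Cd72 are called the Lyve1/Folr2-only division, and those with the opposite pattern the Cx3cr1/Cd72-only division. The first held 55 WT cells (24.0%) and 607 mgR cells (38.5%) and the second 101 (44.1%) and 375 (23.8%). A further 43 WT and 500 mgR macrophages had UMIs of both pairs, and 30 and 93 of neither. Genes that did not define the divisions differed between them: the scavenger receptor Cd163 stood 20.4-fold higher in the Lyve1/Folr2-only division in WT and 22.1-fold in mgR, and the coagulation factor gene F13a1 29.2-fold and 29.1-fold. The antigen-presentation gene H2-Aa stood at 0.0800 of the Cx3cr1/Cd72-only level in the Lyve1/Folr2-only division in WT and 0.113 in mgR.

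Ccl8, Ccl24, Ccl6, Ccl9, Pf4 and Ccr1 were higher in the Lyve1/Folr2-only division in both libraries, and Ccl5 was higher in the Cx3cr1/Cd72-only division. By the rule of at least 2-fold in both libraries, these made 6 genes on the Lyve1/Folr2 side and 1 on the other side, where all 6806 genes with enough UMIs gave 7.1% and 4.19%. The genes were chosen with this contrast known, so nothing is read from those counts.

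Ccl8, a ligand of CCR8 in mice, was high in the Lyve1/Folr2-only division and close to absent from Cx3cr1/Cd72-only cells. In WT it stood at 1309 CPM in the Lyve1/Folr2-only division and 22.8 in the Cx3cr1/Cd72-only division (ratio 57.3, 34.9 to 101), and in mgR at 1593 and 32.6 (ratio 48.8, 40.2 to 59.9). After thinning, 41.5% (28.1 to 55.9) of WT and 49.2% (45.1 to 53.3) of mgR Lyve1/Folr2-only cells had a UMI, against 0.990% and 4.04% of Cx3cr1/Cd72-only cells. The fibroblast-gate share, taken as the level of free RNA, was 0.346% and 1.26%. In the division where it was high, Ccl8 was thus seen in some cells and not in others, and the WT Cx3cr1/Cd72-only share rested on 1 cell. In cells with both pairs the level lay between, at 505 CPM in WT and 1149 in mgR.

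Ccl24 (eotaxin-2), a ligand of the eosinophil receptor CCR3, followed the same division at lower counts. WT Lyve1/Folr2-only cells held 77 UMIs (236 CPM) and Cx3cr1/Cd72-only cells 0, which makes the first at least 55.1-fold higher when 3 counts over the division are allowed for the 0. In mgR the levels were 368 and 4.75 CPM (ratio 77.3, 46.8 to 138). After thinning, 35.8% (23.1 to 50.2) of WT and 35.8% (31.9 to 39.8) of mgR Lyve1/Folr2-only cells had a UMI. The share of Lyve1/Folr2-only cells with Ccl24 thus differed little between libraries at equal depth.

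Ccl6 and Ccl9, neighbouring genes whose products are CCR1 ligands found in rodents, were also higher in the Lyve1/Folr2-only division but were not confined to it. Ccl6 stood at 1581 and 131 CPM in WT (ratio 12.04, 9.63 to 15.2) and at 2495 and 333 in mgR (ratio 7.49, 7.03 to 7.98). Ccl9 stood at 1039 and 249.8 CPM in WT (ratio 4.16, 3.45 to 5.02) and at 976 and 280.2 in mgR (ratio 3.48, 3.24 to 3.75). The thinned share of Cx3cr1/Cd72-only cells with Ccl9 was 31.7% (22.8 to 41.7) in WT and 33.2% (28.4 to 38.2) in mgR, far above the fibroblast-gate 0% (0 of 289 cells, which allows up to 1.04%) and 0.755%. For Ccl6 it was 15.8% (9.33 to 24.4) and 28.3% (23.8 to 33.2), so the Ccl6 intervals of the libraries overlapped only at their edges.

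Pf4, a heparin-binding chemokine first known from platelet granules, was detected in nearly every Lyve1/Folr2-only macrophage. After thinning, 96.2% (87.0 to 99.5) of these cells in WT and 96.8% (95.04 to 98.1) in mgR had a UMI, against 49.5% (39.4 to 59.6) and 52.0% (46.8 to 57.2) of Cx3cr1/Cd72-only cells. Its CPM were 3239 and 845 in WT (ratio 3.83, 3.46 to 4.25) and 3556 and 1093 in mgR (ratio 3.25, 3.14 to 3.38). Cells with both pairs stood as high as the Lyve1/Folr2-only cells in WT, at 3420.3 CPM with overlapping intervals, and somewhat lower in mgR, at 3386.

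Ccr1, the receptor that Ccl3, Ccl5, Ccl6 and Ccl9 can bind, had 211 macrophage UMIs in WT and 1666 in mgR. It stood at 248 and 95.7 CPM in the Lyve1/Folr2-only and Cx3cr1/Cd72-only divisions in WT (ratio 2.60, 1.85 to 3.64) and at 147 and 64.3 in mgR (ratio 2.28, 1.95 to 2.68). The receptor thus had the same side as its ligands Ccl6 and Ccl9 and the opposite side from its ligands Ccl3 and Ccl5. Their ratios in WT and mgR were 0.705 and 0.940 for Ccl3 and 0.106 and 0.310 for Ccl5.

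Ccl5 (RANTES), a ligand of CCR1 and CCR3, had the opposite side. It stood at 85.8 CPM in Lyve1/Folr2-only and 811 in Cx3cr1/Cd72-only cells in WT (ratio 0.106, 0.0697 to 0.155) and at 78.8 and 255 in mgR (ratio 0.310, 0.274 to 0.350). The WT Lyve1/Folr2-only level rested on 28 UMIs in 2 cells, 24 of them in 1 cell. Cells with both pairs stood at 404 CPM in WT and 101 in mgR, and cells with neither at 814 and 489.

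Ccl3 and Ccl4 (MIP-1α and MIP-1β), inflammatory chemokines that macrophages make soon after activation, were abundant in every division and divided least. Ccl4 ran from 7080 CPM in Lyve1/Folr2-only to 13926 in Cx3cr1/Cd72-only cells in WT (ratio 0.508, 0.486 to 0.532) and from 4613 to 6110 in mgR (ratio 0.755, 0.741 to 0.770). For Ccl3 the ratios were 0.705 (0.649 to 0.765) and 0.940 (0.911 to 0.970), and the mgR value turned to just above 1 when the 10 cells with most UMIs were left out, at 0.024 on the log2 scale.

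**Figure D1:**
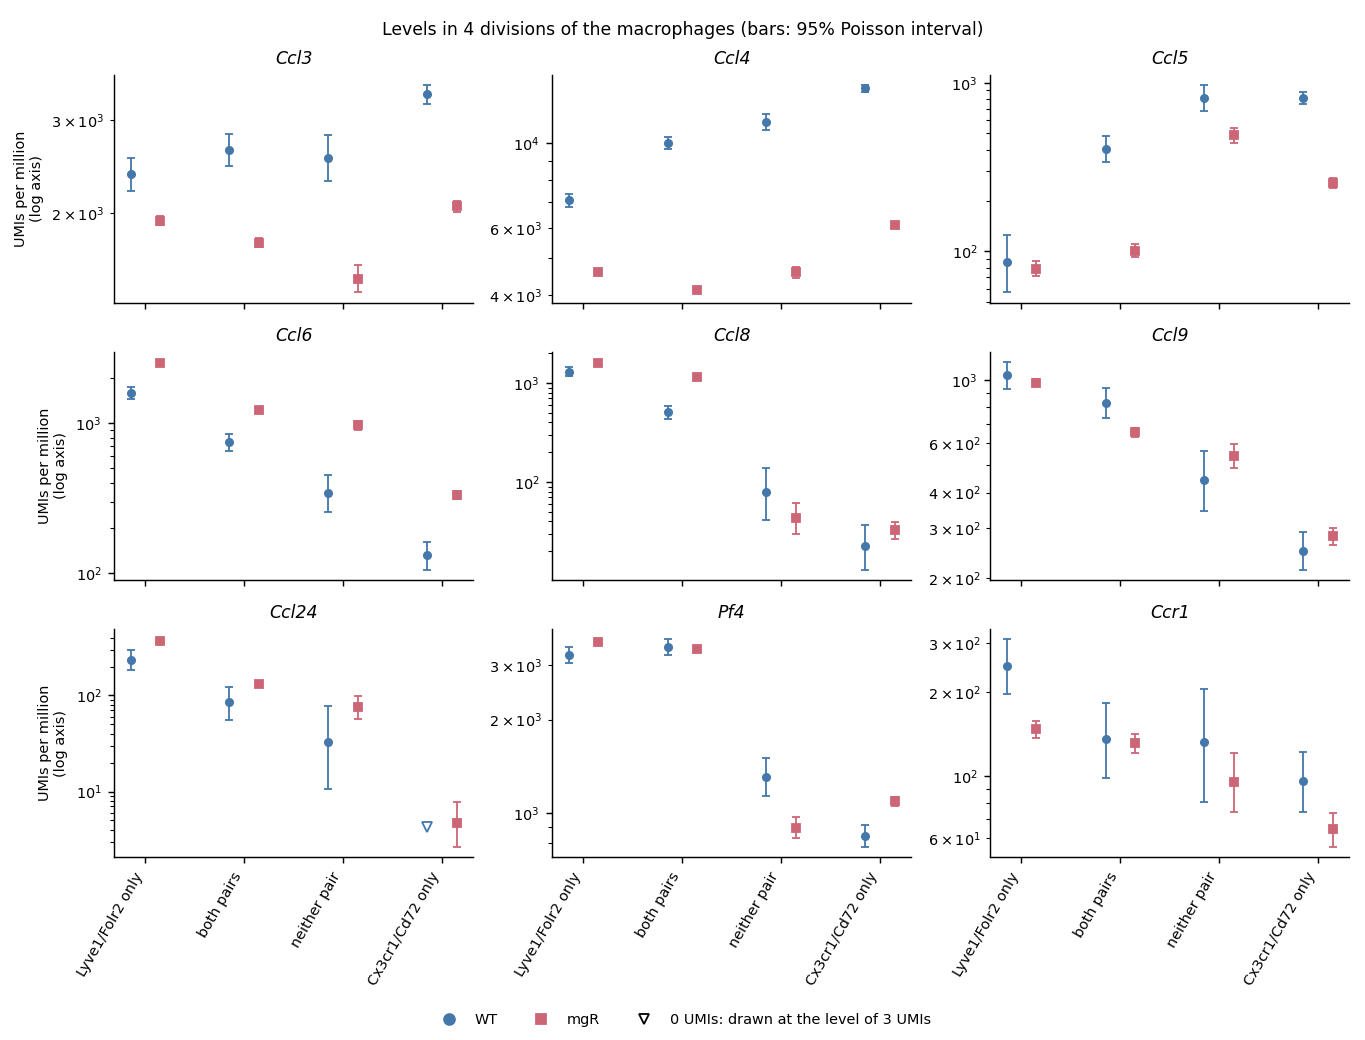
CPM of the 9 genes in the 4 macrophage divisions of the WT and mgR libraries, on a log axis with exact Poisson 95% intervals. Ccl8, Ccl24 and Ccl6 drop by the most from the Lyve1/Folr2-only to the Cx3cr1/Cd72-only division in both libraries, Ccl5 runs the other way, and Ccl3 and Ccl4 stay high in all 4 divisions.

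Among macrophages as a whole, Ccl6, Ccl8 and Ccl24 were higher in mgR than in WT, and Ccl3, Ccl4 and Ccl5 were lower. By the rule of at least 1.5-fold these made 3 of 9 genes on each side, where all 8073 genes with enough UMIs gave 13.1% higher and 5.09% lower, with a median difference of 0.12 on the log2 scale. With 1 library per genotype there was no replicate check, and the genes were chosen with these values known. Genotype cannot be told apart from other differences between the libraries, which include depth, the Xist-only share and the makeup of the macrophages.

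Ccl6 stood at 599.5 CPM in WT and 1467 in mgR (ratio 2.45, 2.29 to 2.62), Ccl8 at 411 and 999.5 (ratio 2.43, 2.24 to 2.64) and Ccl24 at 72.9 and 186 (ratio 2.55, 2.11 to 3.12). All 3 were genes of the Lyve1/Folr2-only division, which was itself a larger share of the mgR macrophages. Within that division the ratios were 1.58 (1.44 to 1.73) for Ccl6, 1.22 (1.10 to 1.35) for Ccl8 and 1.56 (1.24 to 1.98) for Ccl24. The Ccl8 value rested on few WT cells, since 10 of them held 87.1% of the Ccl8 UMIs of that division. Within the Cx3cr1/Cd72-only division Ccl6 kept a ratio of 2.54 (2.05 to 3.17), Ccl8 had 1.43 (0.840 to 2.59), and Ccl24 had 0 UMIs in WT and 15 in mgR. Cells with both pairs gave 1.62 (1.43 to 1.86) for Ccl6, 2.27 (1.94 to 2.68) for Ccl8 and 1.55 (1.06 to 2.37) for Ccl24, and cells with neither 2.80 (2.11 to 3.79), 0.550 (0.276 to 1.17) and 2.27 (0.916 to 7.26). Ccl6 was therefore past 1.5-fold in all 4 divisions, and Ccl8 in cells with both pairs only. These divisions depend on detection, and the deeper mgR library had more cells with both pairs and fewer with neither.

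Few cells carried much of the Ccl8 and Ccl24 in WT. The 10 WT cells with most UMIs held 67.3% of the Ccl8 and 59.6% of the Ccl24, and the 10 such mgR cells 13.1% and 18.9%. Without 10 cells in each library the log2 differences grew to 2.63 for Ccl8 and 2.29 for Ccl24, from 1.28 and 1.35. Leaving out 10 of 229 cells takes away a larger part of the WT macrophages than of the mgR ones, so these values are not on equal terms. At equal depth the share of macrophages with a UMI was 15.2% (10.8 to 20.6) in WT and 33.5% (31.1 to 35.9) in mgR for Ccl8, 11.7% (7.76 to 16.6) and 18.8% (16.9 to 20.9) for Ccl24, and 37.7% (31.3 to 44.4) and 63.1% (60.6 to 65.5) for Ccl6. Before thinning they were 22.7% and 45.8%, 17.9% and 35.6%, and 52.8% and 80.3%.

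Neutrophils also make Ccl6, and neutrophil-gate genes (S100a8, S100a9, Retnlg and Csf3r) summed to 14.7 CPM in WT and 97.0 in mgR macrophages. Among macrophages that passed no other cell type gate, the monocyte gate aside, the Ccl6 difference was 1.30 on the log2 scale, against 1.29 in all macrophages. Only 5 mgR and 0 WT macrophages passed the neutrophil gate, so this step could move the value little, and the part of neutrophil RNA in the Ccl6 difference was not tested.

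Pf4 was 1.43-fold higher in mgR (1960.5 and 2796 CPM, 1.37 to 1.48), short of 1.5-fold, and its direction depended on the division. The ratio was 1.10 (1.03 to 1.17) in Lyve1/Folr2-only and 1.29 (1.18 to 1.41) in Cx3cr1/Cd72-only cells, but 0.990 (0.931 to 1.05) in cells with both pairs and 0.686 (0.584 to 0.808) in cells with neither. Platelet-gate genes (Ppbp, Gp9, Itga2b and Gp1bb) summed to 1.34 CPM in WT and 6.62 in mgR macrophages. The 7 mgR macrophages that passed the platelet gate stood at 5713 CPM of Pf4, and the mgR level without them was 2773 CPM. Ccl9 was 1.20-fold higher (565 and 680.3 CPM, 1.12 to 1.29), but came to 0.939 (0.841 to 1.05) in Lyve1/Folr2-only cells, 0.786 (0.693 to 0.895) in cells with both pairs, 1.22 (0.937 to 1.60) in cells with neither and 1.12 (0.953 to 1.33) in Cx3cr1/Cd72-only cells. Ccl9 was thus higher in mgR over all macrophages and lower in cells with both pairs.

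Ccl5 had the lowest ratio of the 9 genes, at 567 CPM in WT and 148 in mgR (ratio 0.261, 0.241 to 0.283). Its UMIs came from few cells. Before thinning, 20.1% of WT and 12.95% of mgR macrophages carried any, and after thinning 18.4% (13.5 to 24.1) and 8.77% (7.41 to 10.3). The 10 cells with most UMIs held 55.3% and 24.2% of the Ccl5 UMIs. Within the Lyve1/Folr2-only division the ratio was 0.919 (0.626 to 1.40), where WT had 2 cells with a UMI. It was 0.314 (0.282 to 0.350) in Cx3cr1/Cd72-only cells, 0.249 (0.205 to 0.305) in cells with both pairs and 0.600 (0.488 to 0.743) in cells with neither. Ccl5 was thus lower in mgR in 3 of the 4 divisions, and in the Lyve1/Folr2-only division no difference was detectable at this depth.

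Ccl4 stood at 11343 CPM in WT and 4779 in mgR (ratio 0.421, 0.414 to 0.429) and Ccl3 at 2907 and 1878 (ratio 0.646, 0.626 to 0.667). Ccl4 was lower in all 4 divisions, between 0.405 and 0.652. Ccl3 came to 0.817 (0.759 to 0.880) in the Lyve1/Folr2-only division and 0.613 (0.585 to 0.643) in the Cx3cr1/Cd72-only division, with 0.668 (0.622 to 0.718) in cells with both pairs and 0.590 (0.525 to 0.665) in cells with neither. It was lower in all 4 divisions and past 1.5-fold in the Cx3cr1/Cd72-only cells and the cells with neither pair. The median macrophage held 26 Ccl4 UMIs in WT and 9 in mgR, and 9 and 8 of Ccl3. The Ccl3 medians were close although mgR macrophages were sequenced more deeply.

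Tissue digestion is known to switch on early response genes in macrophages, and a list of 16 such genes (Fos, Jun, Egr1, Atf3 and others) was summed beside Ccl3 and Ccl4. It came to 14046 CPM in WT and 11953 in mgR macrophages, and 13 of the 16 genes had a ratio below 1, against 3002 of all 8073 genes, with 4 of the 16 at least 1.5-fold lower, against 5.09% of all genes. Across macrophages the summed list correlated with Ccl3 at 0.26 in WT and 0.37 in mgR and with Ccl4 at 0.23 and 0.40. When macrophages were divided at the median share of these genes, the cells at or below it gave a Ccl4 ratio of 0.249 (0.242 to 0.256) and a Ccl3 ratio of 0.452 (0.429 to 0.476), and the cells above it 0.597 (0.585 to 0.610) and 0.869 (0.834 to 0.906). The ratios of both genes were thus farther from 1 among the cells with less of the early response genes, and the part of digestion in the Ccl3 and Ccl4 differences was not tested. The same division gave Ccl6 ratios of 3.53 and 2.08 and Ccl8 ratios of 4.18 and 1.94, in the same order.

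The Xist-only and Y-only macrophages gave the same side for the 6 genes past 1.5-fold. Among Xist-only cells, 77 in WT and 1056 in mgR, the ratios were 3.34 for Ccl6, 2.47 for Ccl8, 1.62 for Ccl24, 0.712 for Ccl3, 0.421 for Ccl4 and 0.248 for Ccl5. Among Y-only cells, 91 and 300, they were 1.71, 2.25, 2.91, 0.566, 0.371 and 0.400. Ccl9 and Ccr1 did not keep their side. Ccr1 stood at 141 CPM in WT and 119.8 in mgR over all macrophages (ratio 0.849, 0.735 to 0.984), with 1.45 (1.07 to 2.02) in Xist-only and 0.489 (0.393 to 0.611) in Y-only cells. Within the divisions the Ccr1 ratio was 0.592 in Lyve1/Folr2-only and 0.673 in Cx3cr1/Cd72-only cells. It was 0.966 in cells with both pairs and 0.722 in cells with neither, with intervals that included no difference. The Ccr1 ratio was thus on the lower side in every division, and past 1.5-fold in Lyve1/Folr2-only cells only. Over all macrophages the direction of Ccr1 also turned, to 0.13 on the log2 scale, without the 10 cells with most UMIs.

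**Figure D2:**
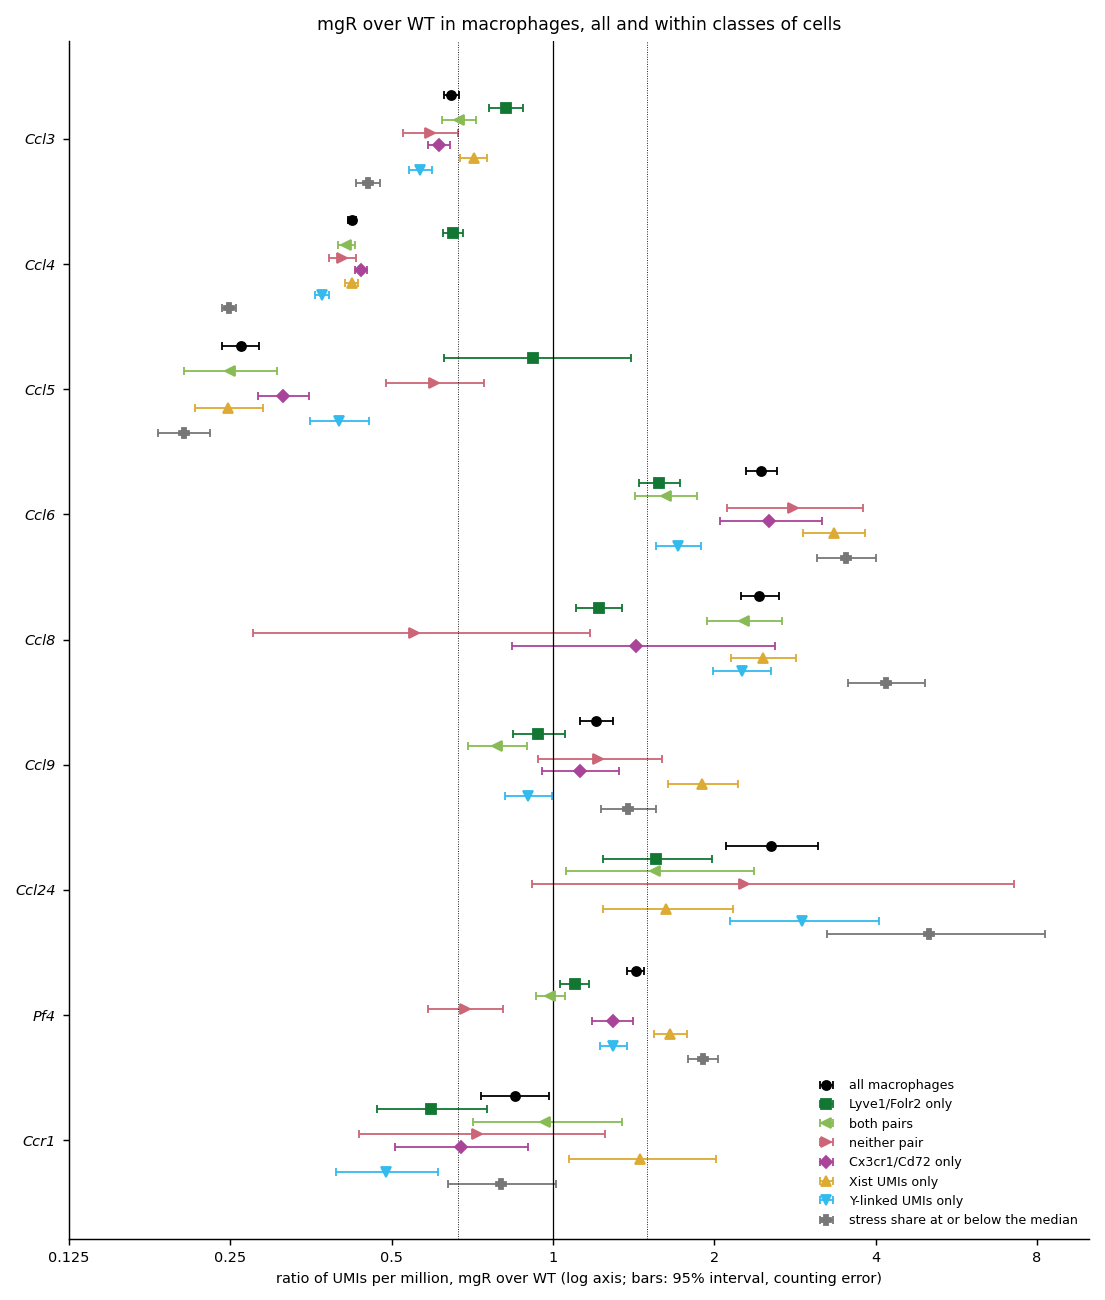
Ratio of mgR to WT CPM on a log axis with 95% intervals for each gene, over all macrophages and within the 4 divisions, Xist-only cells, Y-only cells and cells at or below the median share of early response genes. Ccl6 lies above 1.5 and Ccl4 below 1/1.5 in all of these classes. Pf4, Ccl9 and Ccr1 lie on both sides of 1, and Ccl8 lies below 1 only in cells with neither pair. Ccl24 has no point for Cx3cr1/Cd72-only cells because WT had 0 UMIs.

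Most UMIs of these genes in the valve lay in macrophages. The macrophage share of all UMIs of a gene was 97.8% in WT and 97.6% in mgR for Ccl3, 98.6% and 97.7% for Ccl4, 98.7% and 99.2% for Ccl8, and 97.6% and 98.7% for Pf4. For Ccl24 it was 98.2% and 91.9%, for Ccl9 91.7% and 94.8% and for Ccl6 85.4% and 95.5%. It was lower for Ccr1, at 67.2% and 82.8%, and the exception was Ccl5, with 43.5% and 34.8%. These shares move with the number of macrophages in each library, which was larger in mgR.

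Ccl5 was highest in NK-gate cells in both libraries, and the groups next in order differed. NK-gate cells, only 3 in WT and 5 in mgR, stood at 24238 and 17154 CPM. T cells stood at 1494 and 772 CPM, 2.64 (2.37 to 2.93) and 5.21 (4.79 to 5.68) times the macrophage level. Within T cells the UMIs lay with the cytotoxic markers Cd8a and Nkg7: the 20 WT T cells with a UMI of either held all 600 T cell UMIs, and the 70 without held 0. In mgR the 47 T cells with either held 725 UMIs (2505 CPM), and of the 109 without, 1 cell held 5. Macrophages had 0 UMIs of Cd8a and Nkg7 in both libraries, so no macrophage with Ccl5 carried these markers. Dendritic-gate cells stood at 522 CPM in WT and 1079.7 in mgR, where 1 cell held 466 of the 1751 UMIs. The 33 mgR monocyte-gate cells stood at 836 CPM, 5.64 (4.84 to 6.55) times the macrophage level, and the 6 WT ones held 0 UMIs. Of all mgR Ccl5 UMIs, dendritic-gate cells held 29.6%, T cells 12.3% and NK-gate cells 10.6%, against 10.2%, 30.8% and 10.9% in WT.

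Ccl6 and Ccr1 were highest in neutrophil-gate cells, 15 in WT and 34 in mgR. Ccl6 stood there at 2382 and 3018 CPM, 3.97 and 2.06 times the macrophage level, and Ccr1 at 1029 and 851 CPM, 7.29 and 7.103 times. The Ccl6 and Ccr1 levels of neutrophil-gate cells were above those of every macrophage division in each library, with intervals that did not overlap the next group in order. The median neutrophil-gate cell had 2157 UMIs in WT and 1699 in mgR, so these cells held only 88 and 195 UMIs of Ccl6.

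Pf4 outside macrophages included 123 UMIs in 3 mgR platelet-gate barcodes (26722 CPM), and Ccl24 included 206 UMIs in 4 of 149 mgR dendritic-gate cells, 1 of which held 123. Ccl4 reached 4629 CPM in the mgR NK-gate cells, where 1 of 5 cells held 130 of the 170 UMIs, and stood at 569 CPM in those of WT. A further 8 mgR cells passed both the macrophage and the T cell gate and were kept apart from either. They had a median of 13813 UMIs.

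**Figure D3:**
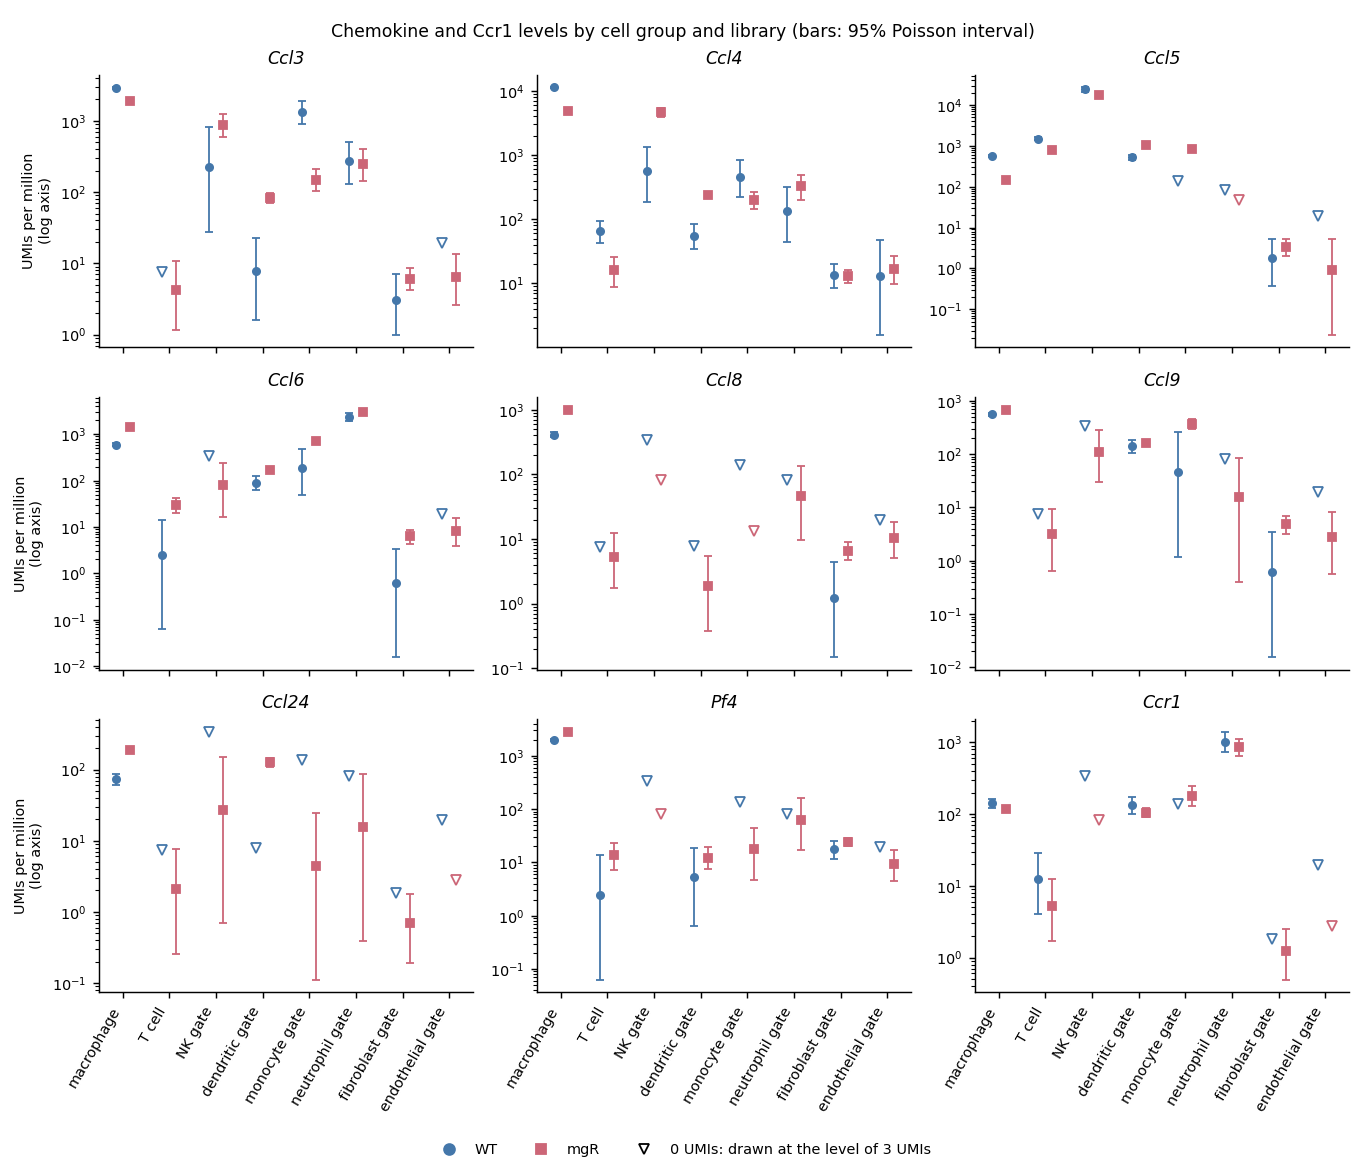
CPM of the 9 genes on a log axis in macrophages and other cell groups of each library, with exact Poisson 95% intervals. Ccl3, Ccl4, Ccl8, Ccl9, Ccl24 and Pf4 are highest in macrophages among the groups plotted, which leave out the platelet-gate barcodes, Ccl5 is highest in NK-gate cells and T cells or dendritic-gate cells, and Ccl6 and Ccr1 in neutrophil-gate cells.

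Among single macrophages the 9 genes fell into pairs and groups by how they varied together. Correlations were taken across the 229 WT and 1575 mgR macrophages on log(1 + UMIs per 10000) and are descriptions, since cells of a library share its depth, animals and handling. Ccl3 and Ccl4, 13228 bp apart, had the highest correlation of any pair (Pearson r of 0.77 in WT and 0.74 in mgR, and 0.69 and 0.65 after thinning). Ccl6 and Ccl9, 9245 bp apart, had 0.56 and 0.61 (0.49 and 0.44 after thinning). The other neighbours had r near 0, at -0.05 and 0.00 for Ccl6 with Ccl3 and at -0.01 and -0.10 for Ccl5 with Ccl9, whereas Ccl5 and Ccl4, at the ends of the cluster, had 0.41 and 0.20. Ccl6 also varied with Ccl24 on another chromosome, with 0.50 and 0.46. The closest neighbours in the cluster thus had the highest correlations within it.

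The genes most like each member, of 5366 detected in at least 10% of macrophages of each library, fell along the same lines. For Ccl3 they were Ccl4, the cytokine Tnf (0.67 and 0.62) and the neutrophil chemokine Cxcl2 (0.63 and 0.57), and Ccl4 had the same partners with Ccl3 in first place. For Ccl5 they were the interferon-induced genes Isg15 (0.45 and 0.32), Ifit1 (0.44 and 0.30) and Cxcl10 (0.47 and 0.26). The partners of Ccl5 were thus other genes than those of Ccl3 and Ccl4.

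For Ccl6 the closest were Wfdc17 (0.61 and 0.67), Lyve1 (0.64 and 0.64) and Folr2 (0.59 and 0.63), and for Ccl24 Lyve1 (0.44 and 0.50), Folr2 (0.50 and 0.48) and Ccl6. For Ccl8 they were Folr2 (0.52 and 0.52), Gas6 (0.40 and 0.49), a ligand of receptors for dying cells, and Selenop (0.39 and 0.45), a selenium transport protein. Ccl9 lay closest to Ccl6, F13a1 (0.47 and 0.53) and Lyve1 (0.46 and 0.50). Pf4 lay closest to F13a1 (0.64 and 0.65), the mannose receptor Mrc1 (0.62 and 0.65) and Cbr2 (0.62 and 0.64), all 3 known in resident macrophages. Ccr1, with no partner above 0.27 in mgR, had no close one.

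**Figure D4:**
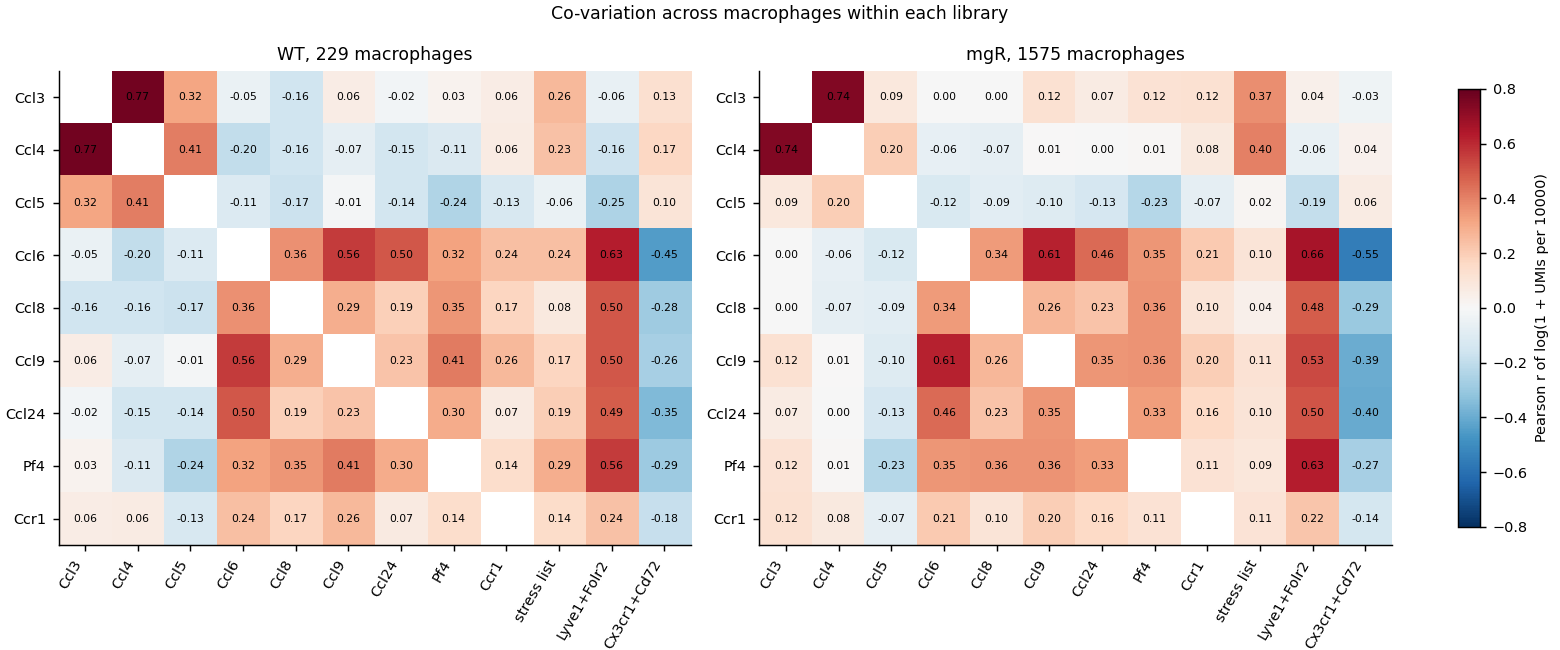
Pearson r between the 9 genes, and with the summed early response list and the division genes, across 229 WT macrophages and 1575 mgR macrophages. Ccl3 with Ccl4 is the strongest pair (0.77 and 0.74), Ccl6, Ccl8, Ccl9, Ccl24 and Pf4 all vary with Lyve1 and Folr2, and Ccl5 varies with Ccl4 and against Pf4.

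The receptor genes Ccr3, Cxcr3 and Ccr8 had few or no UMIs in macrophages. Ccr3, the Ccl24 receptor, had 2 and 23 UMIs, and Cxcr3, a receptor for several CXC chemokines, 4 and 36. Ccr8 had 0 UMIs in macrophages of both libraries, which allows up to 2.01 CPM in WT and 0.216 in mgR. Ccr8 was thus not detected in macrophages of either library within these limits. Ccr3 and Cxcr3 had too few UMIs to compare their levels between libraries.

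Of 27 other chemokine ligands listed, 26 were in the matrix and 13 had at least 100 macrophage UMIs over both libraries. Of these 13, 2 were at least 1.5-fold higher in mgR and 4 at least 1.5-fold lower, against 13.1% and 5.09% of all genes. The higher ones were Ccl17, a CCR4 ligand usual in dendritic cells (3 UMIs in WT and 934 in mgR, ratio 33.5, 11.4 to 163), and Cxcl9, an interferon-γ-induced CXCR3 ligand (13 and 885 UMIs, ratio 7.32, 4.26 to 13.8). The lower ones were Cxcl10 (ratio 0.373), the CCR2 ligand Ccl12 (0.465) and the neutrophil chemokines Cxcl2 (0.611) and Cxcl3 (0.645). The median log2 difference of the 13 was -0.41, against 0.12 over all genes. Cxcl2, a close partner of Ccl3 and Ccl4, and Cxcl10, a close partner of Ccl5, were thus lower in mgR macrophages with them. Of the 6 other receptors with enough UMIs, 0 were higher and 2 lower past 1.5-fold, Ccrl2 (0.639) and Cx3cr1 (0.617), which was also used to define the divisions.

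The C1q limit had few cells near it. Cells with 10 to 14 UMIs of the C1q genes numbered 3 in WT and 16 in mgR, and cells with 5 to 9 numbered 14 and 22. The cells just outside stood at 977 CPM of Pf4 in WT and 318 in mgR, and those just inside at 769 and 155. For Ccl5, the 16 mgR cells just inside held 220 UMIs (2010.0 CPM, with a UMI in 25% of them before thinning), and the 3 WT cells held 0. These bands were taken from all kept cells, including any that also passed the T cell gate. Of the 8 mgR cells that passed both gates, 1 held 164 Ccl5 UMIs. How much of the 220 belongs to the 2059 mgR macrophage UMIs was therefore not determined. With at least 30 C1q UMIs required, the log2 difference of Ccl5 was -1.95, against -1.94.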

How the data were processed

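Per the labels, the libraries were 10x 3′ gene expression libraries aligned and counted by the authors with Cell Ranger 7.1.0 on mm10, and the deposited matrices hold raw UMI counts per gene and barcode. Whether counting used introns is not given in the sources used here. Cells with 200 to 5000 genes and at most 10% mitochondrial UMIs were kept. The libraries shared 2 barcodes before filtering and 0 after. Cells were gated on summed UMIs of marker genes. No doublet was removed for the values in the text, and Scrublet, run as an alternative, marked 0.914% of WT and 1.63% of mgR cells. The 9 genes, the gates and the gene lists were chosen with earlier results of these data known. With 1 library per genotype nothing was tested. Intervals (95%) are exact Poisson for CPM, Clopper-Pearson for shares and conditional binomial for ratios, computed with scipy 1.17.1 in Python 3.11.15. Of these, the ratio intervals were checked on simulated counts. Those counts were drawn independently, so the check does not cover UMIs concentrated in few cells. A gene entered the fold counts with at least 100 UMIs. Named partners are the 3 genes with the highest r in mgR macrophages. Named chemokines are those past 1.5-fold. Motifs were counted in RefSeq promoter windows. Values of 1 receptor gene on the named list are not reported here.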

Additional observations from a re-analysis of the deposited data

Results flagged for a closer look

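The mgR to WT ratio of Ccl9 and of Ccr1 went opposite ways in macrophages with Xist UMIs only and in macrophages with Y-linked UMIs only. Ccl9 had a ratio of 1.90 in the first and 0.8995 in the second. Ccr1 had 1.45 in the first and 0.489 in the second. All 4 intervals left out 1, but these count UMIs and not cells or animals, and the difference between the Xist-only and Y-only cells was not tested.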

How the results depend on the processing

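The alternatives were other limits on cells, C1q and CD3, no minimum of UMIs, scaling by the median of gene ratios and other rules for the divisions. Further ones were Scrublet, macrophages of no other gate (the monocyte gate aside), a mean over cells, thinning, leaving out 10 cells, and Xist-only or Y-only cells. Divisions by macrophage subset and by early response genes were added after seeing the data. Neither subset count moved by over 1.5 times. The count of genes at least 1.5-fold higher in mgR was 3, and came to 5 in Xist-only cells and 1 in Cx3cr1/Cd72-only cells and in cells of neither pair. The log2 difference of Ccr1 turned from -0.24 to 0.13 without the 10 cells with most UMIs and to 0.54 in Xist-only cells. That of Ccl9 turned from 0.27 to -0.15 in Y-only cells -0.090 in Lyve1/Folr2-only cells and -0.35 in cells of both pairs. Pf4 turned from 0.51 to -0.015 in cells of both pairs and -0.54 in cells of neither, and Ccl8 from 1.28 to -0.86 in cells of neither. The mgR subset ratio of Ccl3 turned from -0.09 (log2) to 0.024 without the 10 cells, 0.027 in Xist-only cells and 0.25 in cells with less of the early response genes. The cause was not tested. Apart from Ccr1 and Ccl9, 7 genotype ratios kept their direction in the 14 alternatives planned for them: Ccl3 ran from -0.82 to -0.39, Ccl4 from -1.43 to -1.04, Ccl5 from -2.06 to -1.25, Ccl6 from 0.78 to 1.74, Ccl8 from 1.16 to 2.63, Ccl24 from 0.70 to 2.29 and Pf4 from 0.37 to 0.73. Leaving out a replicate was not possible with 1 library per genotype. Ccl24 in WT has no subset ratio because 1 division held 0 UMIs.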

Other observations

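Cxcl13, which attracts B cells, had a subset pattern like that of Ccl8, and it is named here after its values were seen. It stood 55.8-fold higher in Lyve1/Folr2-only than in Cx3cr1/Cd72-only macrophages in WT and 31.3-fold higher in mgR. Over all macrophages Cxcl13 had only 72 UMIs in WT and 685 in mgR, so the WT fold rests on few counts. Its level over all macrophages was 48.2 CPM in WT and 49.3 in mgR (ratio 1.02, 0.801 to 1.32). The CCR2 ligands Ccl2 and Ccl7 lay on the same side, at 2.47-fold and 2.48-fold for Ccl2 and 3.61-fold and 3.93-fold for Ccl7. These 3 were the ligands, of 12 with enough UMIs, at least 2-fold higher on that side in both libraries, where 7.1% of all 6806 genes were. On the Cx3cr1/Cd72 side 6 of the 12 were at least 2-fold higher, against 4.19% of all genes. They were Ccl17, Ccl22, Cxcl3, Cxcl9, Cxcl10 and Cxcl16. Of these, Ccl17, Cxcl9 and Ccl22 had only 3, 13 and 27 UMIs over all WT macrophages, so their side in WT rests on few counts.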
